A study of Mus musculus with 11 samples.

Results

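The last 4 days of a reprogramming course were compared in pairs, days 7 and 8 against days 5 and 6, by small RNA sequencing, in mouse embryonic fibroblasts (MEF) that were being turned into induced pluripotent stem cells (iPSC). The 4 libraries, 1 for each day, were chosen by their labels from the 11 libraries of the series, 2 in the earlier and 2 in the later pair. All 4 came from cells labelled Mbd3f/-. Mbd3 is a subunit of NuRD, a chromatin remodelling complex, and of its alleles 1 was floxed and 1 deleted. They were secondary MEF that carried a doxycycline-inducible cassette with Oct4, Sox2, Klf4 and Myc, the reprogramming factors, and had been in doxycycline for 5, 6, 7 or 8 days. On all 4 days the cells grew on irradiated human foreskin fibroblasts, in medium that held serum replacement, LIF and MEK and GSK3 inhibitors. These inhibitors were in use before day 5, although the labels disagree on their first day. The 2 pairs therefore share genotype, feeders and medium. They differ in time in doxycycline, and also in depth and in the share of reads on small RNA genes, as given below. Time and such differences between libraries cannot be told apart here. An established iPSC line labelled Mbd3f/- and an embryonic stem cell (ESC) line, both on the same kind of feeders, served as reference points, 1 library each. The genotype of the ESC library is unclear, because its label says Mbd3f/- and its column name V6.5. The remaining 5 libraries (MEF and days 1 to 4) entered only the scaling, the filter and, for days 1 to 4, reference comparisons.

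Consecutive days of 1 course are not replicates of a condition. A p-value over these 4 libraries measures the spread between neighbouring days, not the spread between cultures. With 1 library a day, fewer cells that express a transcript and less of it per cell cannot be told apart, nor can mouse RNA and RNA of the human feeders where the sequences are alike.

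MicroRNAs (miRNAs) are RNAs of about 22 nt cut from hairpins. They pair through their seed, bases 2 to 8 from the 5′ end, with messenger RNAs and lower their output, so that miRNAs with 1 seed share many targets. Mouse pluripotent cells are known for the miR-290 and miR-302-367 clusters, which hold miRNAs of 1 seed that speed the passage from G1 to S phase and aid reprogramming. Fibroblasts are known for miR-21, miR-199, miR-143 and let-7. Small nucleolar RNAs (snoRNAs) are mostly cut from introns and guide the modification of ribosomal RNA.

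The sequences below carry the comparison, because miRNAs that share a seed went together in some families and apart in others. They are mature mouse miRNAs from RefSeq (GRCm38.p6), 5′ to 3′, with the seed in capitals. The deposited table gives 1 value for each hairpin gene and does not say which arm was read, so the arm shown is the one known to carry that seed and was not measured here. RefSeq entries were found for 435 of the tested transcripts, among 883 of miRNA type. The first set is the seed of the pluripotent clusters, whose tested carriers were all higher on both later days. miR-302c is offset by 1 base.
miR-302b-3p: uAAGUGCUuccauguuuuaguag
miR-302d-3p: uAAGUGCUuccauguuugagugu
miR-302c-3p: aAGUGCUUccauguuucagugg
miR-291a-3p: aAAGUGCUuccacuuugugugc
miR-294-3p: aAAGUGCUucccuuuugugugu
miR-295-3p: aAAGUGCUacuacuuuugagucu
The second set holds 1 seed in 3 clusters that went in different directions, lower in miR-17 and miR-20a (chromosome 14) and miR-106b (chromosome 5), higher in miR-93 (chromosome 5) and in miR-106a and miR-20b (chromosome X). For miR-106b the difference was small and its direction depended on the scaling. Without scaling miR-93, miR-106a and miR-20b were no longer higher on both later days.
miR-17-5p: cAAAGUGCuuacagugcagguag
miR-20a-5p: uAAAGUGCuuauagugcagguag
miR-106b-5p: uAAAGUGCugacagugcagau
miR-93-5p: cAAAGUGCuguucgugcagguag
miR-106a-5p: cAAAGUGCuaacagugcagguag
miR-20b-5p: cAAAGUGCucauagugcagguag
The third set likewise joins 1 seed from the chromosome 14, X and 3 clusters, with miR-92a lower and miR-363 and miR-367 higher. The direction given for miR-92a is that of the gene Mir92-1 on chromosome 14. Mir92-2, an X-linked gene with the same seed, overlapped between the pairs. Without scaling miR-363 was no longer higher on both later days.
miR-92a-3p: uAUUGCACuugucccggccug
miR-363-3p: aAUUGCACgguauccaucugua
miR-367-3p: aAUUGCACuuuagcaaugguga
The fourth set is the miR-200 family, with its 2 seeds that differ by 1 base, the first in miR-141 and miR-200a and the second in miR-200b, miR-200c and miR-429.
miR-141-3p: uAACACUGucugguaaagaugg
miR-200a-3p: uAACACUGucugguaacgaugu
miR-200c-3p: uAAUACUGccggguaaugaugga
miR-200b-3p: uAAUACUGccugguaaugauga
miR-429-3p: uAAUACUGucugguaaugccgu
The fifth set is the miR-181 family, 1 seed again, with miR-181c and miR-181d higher and miR-181b lower.
miR-181c-5p: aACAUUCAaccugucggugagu
miR-181d-5p: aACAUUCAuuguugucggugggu
miR-181a-5p: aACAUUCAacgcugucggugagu
miR-181b-5p: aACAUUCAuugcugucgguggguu
The last set is abundant miRNAs with wide differences, 2 from the X chromosome that were higher and 2 that were lower. Of these only miR-10a is among the 15 widest in its direction.
miR-470-5p: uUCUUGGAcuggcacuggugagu
miR-871-3p: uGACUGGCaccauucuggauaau
miR-10a-5p: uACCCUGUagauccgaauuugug
miR-541-5p: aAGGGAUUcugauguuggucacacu

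The deposited values are FPKM, fragments scaled by transcript length and by the library's mapped fragments. Small RNA genes of the table took 47.4% and 45.2% of the modelled mapped reads on days 5 and 6, but 22.8% and 27.9% on days 7 and 8. The other 7 libraries lay between 47.9% and 59.6%. The modelled depth was about 12500000 and 14600000 mapped reads on days 5 and 6 and 21700000 and 20400000 on days 7 and 8. Because of this drop, FPKM was divided by a factor for each library, the median ratio to the geometric mean of 11 libraries over 783 transcripts, which was 1.04, 1.20, 0.594 and 0.859 on days 5 to 8. Levels below are such scaled FPKM, and differences are of log2(scaled FPKM + 10), mean of days 7 and 8 minus mean of days 5 and 6. Without the division the median difference of all transcripts was -0.48, so a direction below is relative to the middle transcript. With factors from miRNA genes alone that median was 0.35. A scaled FPKM of about 44.1 on days 5 or 7 and 32.5 on day 8 was worth 1 read at 80 nt, so values near these rest on few reads.

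Of 3859 transcripts in the table, 1419 had a mean FPKM of at least 10 over the 11 libraries and were tested. In 711 of them, 50.1%, both later values lay on the same side of both earlier ones, 378 higher (26.6%) and 333 lower (23.5%). The difference was at least 2-fold in 256 of those that were higher (18.0% of the tested) and 197 of those that were lower (13.9%). The earlier steps of the course gave similar shares, 43.1% for days 5 and 6 against days 3 and 4 and 44.5% for days 3 and 4 against days 1 and 2. Days 1 and 2 came before the feeders, and the first day of the inhibitors is not certain. These earlier steps may thus differ in feeders or medium as well as in time. In the model across all 1419 transcripts (limma, 2 against 2, two-sided, Benjamini-Hochberg adjustment) 0 passed an adjusted p of 0.05 (0%), with 258 (18.2%) at an unadjusted p below 0.05 and a smallest adjusted p of 0.171. Among the 631 transcripts of a mean FPKM of 1000 or more, a filter that leaves out most transcripts of a few reads, a limma fit of the same design called 58 (9.19%), 32 that rose and 26 that fell. This fit estimated its own prior from those 631 transcripts, with 6.07 prior degrees of freedom against 0.842 over all 1419, so its calls lean more on the spread shared between transcripts. "Rose" and "fell" are used below only for these 58. "Higher" or "lower on both later days" means only that the pairs did not overlap.

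The 5 miRNAs of the miR-302-367 cluster (GRCm38 chr3:127545228-127545807, in an intron of Larp7 on the opposite strand) had a median difference of 3.66, beside 0 for all transcripts tested, and all 5 were higher on both later days (26.6% of all transcripts were). Mir302d, the most abundant member, was at 7815, 13579, 90659 and 186685 scaled FPKM on days 5, 6, 7 and 8. Day 7 was already several times day 6 and day 8 was the highest, with a difference of 3.66 ± 0.50 (SE of the limma fit with a mean FPKM of 1000 or more). Mir302a was at 3356, 6477, 38689 and 76589, a difference of 3.54, the lowest of the 5. Mir302b was at 1822, 3375, 25444 and 39113, and its difference was also 3.66. These 3 followed 1 course, with a small step from day 5 to day 6 and their widest step from day 6 to day 7. Mir302c was at 140, 1287, 7860 and 13153, where the first value rests on about 2 reads and the last on 257. Mir367, which does not carry the miR-302 seed, was listed at 0 on day 5 and at 274, 1708 and 3648 on the next 3 days, or about 7, 32 and 93 reads. Its difference of 5.56, the widest of the cluster, depends on the value of 0. The median step of the cluster was 0.95 from day 5 to day 6, 2.60 from day 6 to day 7 and 0.99 from day 7 to day 8. Every member was higher than the day before at each of these 3 steps.

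Among transcripts of a mean FPKM of 1000 or more, Mir302a, Mir302b and Mir302d each had a limma adjusted p of 0.0181 and Mir302c one of 0.0373, and all 4 rose. Over all 1419 transcripts the smallest adjusted p in the cluster was 0.205. All 5 members were higher on both later days under each of the 6 other scalings, with medians from 3.02 (no scaling) to 4.15 (miRNA genes alone). Day 8 was above both established lines in 5 of 5 members, where 38.0% of all transcripts were. Mir302d was at 61358 in the iPSC and 95062 in the ESC library, both below its day 8 value.

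The 7 miRNAs of the miR-290 cluster (GRCm38 chr7:3218626-3220841), the main miRNAs of mouse embryonic stem cells, were also all higher on both later days (26.6% of all transcripts were), with a smaller median of 0.82. Mir294 had the widest difference, 1.80, with 343763, 703471, 2040280 and 1428920 scaled FPKM on days 5 to 8. Mir292 was at 3795510, 4461930, 10751400 and 10309900, a difference of 1.36. In both, day 7 was the highest of the 4 days. Mir295 was the most abundant transcript of the late days, at 18954500, 26753500, 43669400 and 36304300, a difference of 0.82. It was listed at 0 in both established lines, so it has no comparison with them. Mir291a was at 1003830, 1336750, 2574710 and 2586830, and Mir293 and Mir290 differed by 0.73 and 0.77. Mir291b had the narrowest gap between the pairs, at 10727, 10433, 12290 and 12315, a difference of 0.22 that turned to -0.43 without scaling. Unlike in the miR-302-367 cluster, day 8 was above day 7 in only 3 of 7 members, and the median step between those days was -0.06. No member was among the 58 transcripts called by limma. Without scaling 2 of 7 were higher on both later days and 1 lower, with a median of 0.17, so the direction of this cluster is relative to the other transcripts.

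**Figure D1:**
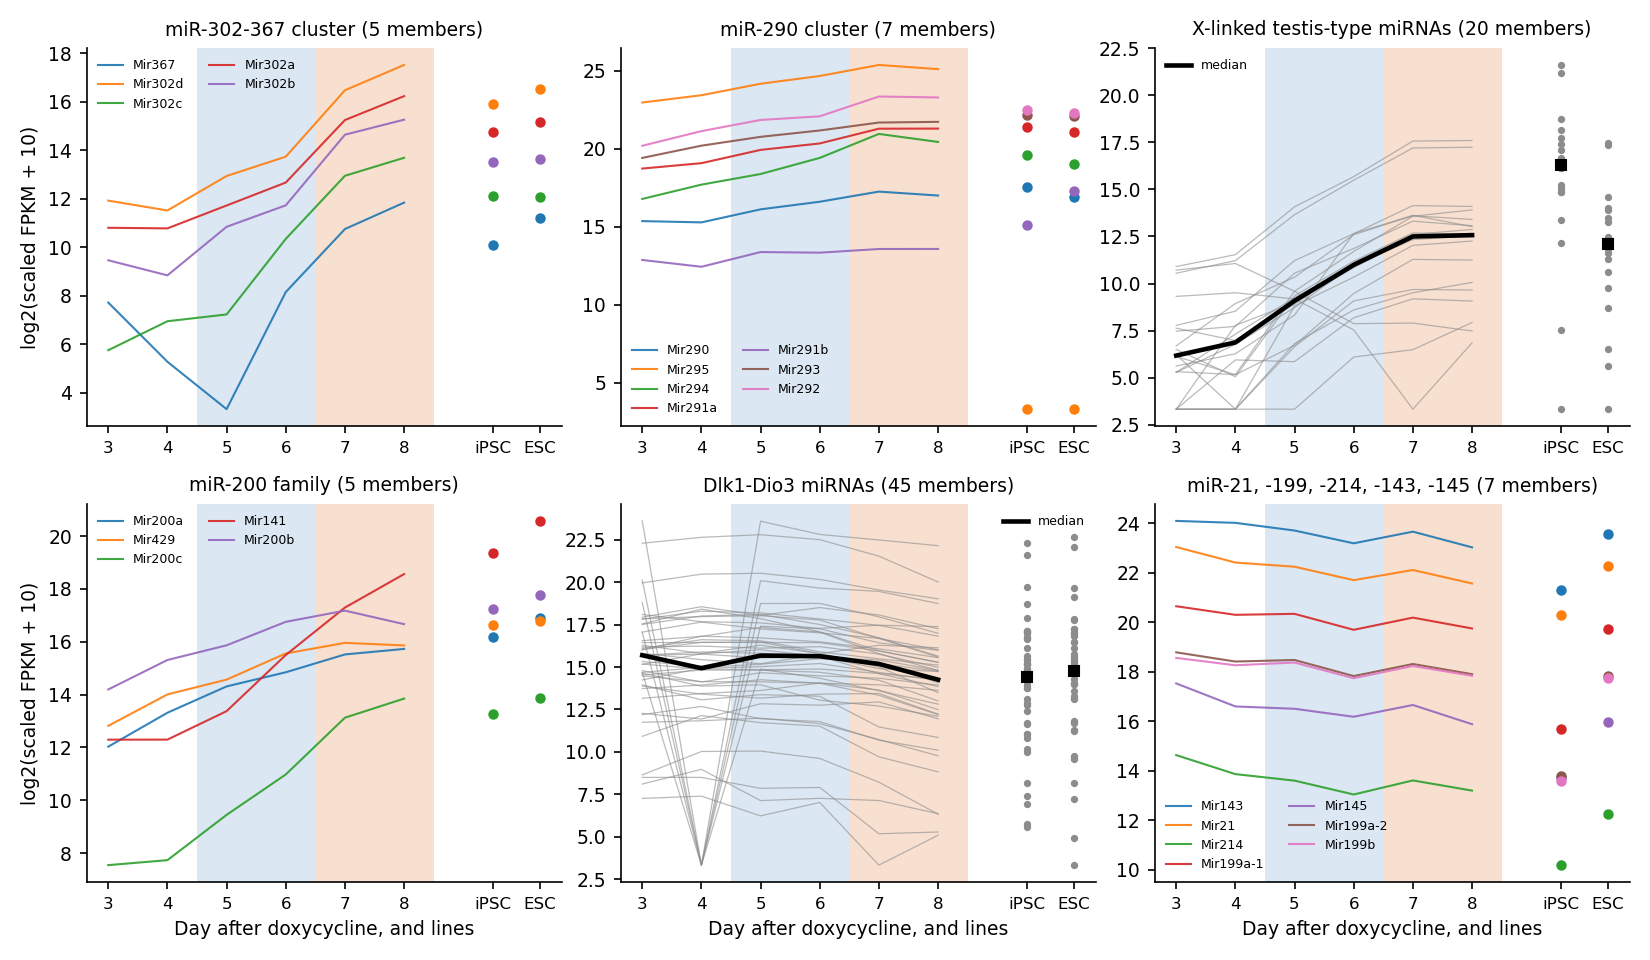
Levels of 6 lists of miRNAs, as log2(scaled FPKM + 10), on days 3 to 8 after doxycycline (lines) and in the iPSC and ESC libraries (points), with days 5 and 6 shaded blue and days 7 and 8 shaded orange; in panels of over 7 members each member is grey and the median black. The miR-302-367 members climb from day 5 to day 8 and end above both lines, the X-linked members level off between days 7 and 8, most Dlk1-Dio3 members slope down, and the 7 fibroblast-type members move in parallel, lower on days 6 and 8; 5 Dlk1-Dio3 members and Mir295 reach the floor where they are listed at 0 (day 4 and the lines).

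The 3 clusters of the miR-17 type were compared, since they share seeds and are known to act on cell cycle inhibitors. In the miR-17-92 cluster (GRCm38 chr14:115043671-115044506, in the transcript Mir17hg), which is known as a driver of proliferation, all 6 members were lower on both later days (23.5% of all transcripts and 35.1% of miRNAs were), with a median of -0.79. With factors from miRNA genes alone 4 were lower and 1 higher (median -0.30), and without day 8 the median was -0.52. Mir17 was at 183711, 206591, 136572 and 98069 scaled FPKM on days 5 to 8, a difference of -0.75. Mir92-1, the most abundant member, was at 16504900, 13380100, 10366000 and 9272120, a difference of -0.60. Mir18 had the widest difference, -0.96, at 50811, 51931, 34697 and 19993. Each of the 6 was lower on day 7 than on day 6 and lower on day 8 than on day 7. Day 8 was below both established lines in 5 of 6, where 34.0% of all transcripts were. The narrowest difference was that of Mir19b-1, -0.32, whose mature sequence also comes from the X-linked copy Mir19b-2, so the table cannot assign it with certainty.

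The miR-106a-363 cluster on the X chromosome (GRCm38 chrX:52741693-52742567), a relative of miR-17-92, went the other way, with 3 of 6 higher on both later days (26.6% of all transcripts were), 1 lower and a median of 0.85. Mir20b was at 3228, 4950, 9590 and 22026 scaled FPKM, a difference of 1.86 ± 0.58 (SE of the limma fit over all transcripts), and climbed at every step. Mir106a was at 5142, 6992, 9929 and 24287, a difference of 1.37. Mir92-2, the most abundant, overlapped with 0.48. Mir363 was at 23386, 33746, 37360 and 111914, a difference of 1.20, most of which came on day 8. The lower member was Mir19b-2, with -0.28, the copy that shares its mature sequence with Mir19b-1. Day 8 was below both established lines in all 6 members. Mir363 was at 845000 in the iPSC and 812083 in the ESC library, and Mir20b at 98442 and 110007, both several times day 8. Without day 8 the median of the list was 0.18, and without day 7 it was 1.64. Without scaling 0 of 6 were higher on both later days and 1 was lower.

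The third cluster, miR-106b-25 (GRCm38 chr5:138165321-138165818, within Mcm7), split within 1 host gene. Mir93 was at 407867, 510715, 705885 and 1183700 scaled FPKM, a difference of 1.00. Mir106b was at 167908, 163887, 136066 and 147077, a difference of -0.23 that turned to 0.25 with factors from miRNA genes alone and to 0.01 with column sums. With quantile normalization or factors from abundant transcripts, no member of the cluster was lower on both later days. Without scaling 0 of 3 members, and so not Mir93 either, were higher on both later days and 2 were lower. Mir25 overlapped between the pairs, with -0.08. With the scaling used here, 3 of the 6 tested transcripts with the seed AAAGUGC were thus higher and 3 lower on both later days, while all 5 with the seed AAGUGCU were higher. Of 7 with the seed AUUGCAC, 2 were higher and 1 lower. No member of these 3 clusters passed an adjusted p of 0.05 in limma, the smallest being 0.275.

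**Figure D2:**
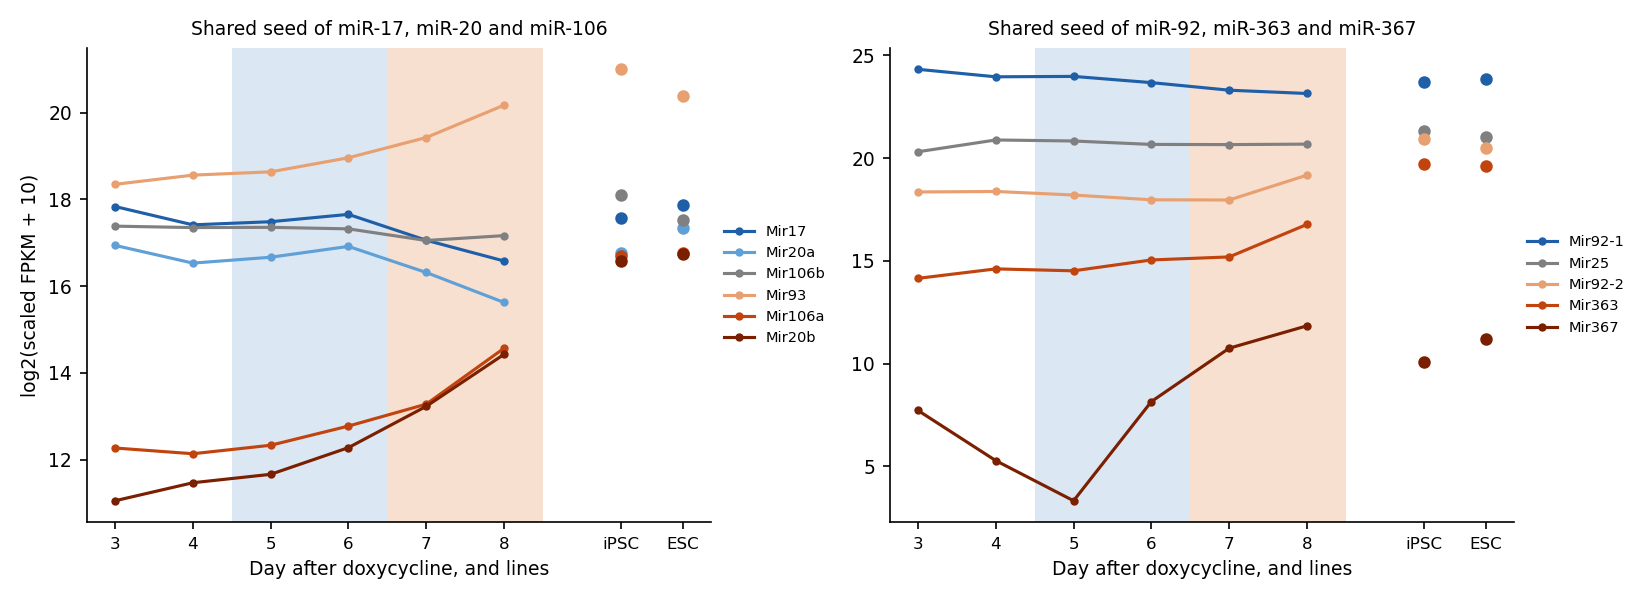
Levels of miRNA genes with a shared seed, as log2(scaled FPKM + 10), on days 3 to 8 and in the iPSC and ESC libraries, with days 5 and 6 shaded blue and days 7 and 8 orange. On the left, Mir17 and Mir20a from chromosome 14 slope down from day 6 to day 8 while Mir106a, Mir20b and Mir93 climb; on the right, Mir92-1 slopes down while Mir363 and Mir367 climb, Mir367 from a value of 0 on day 5.

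The miR-200 family, known for keeping epithelial cells epithelial by repressing Zeb1 and Zeb2, was higher on both later days in 4 of 5 members (26.6% of all transcripts were), with a median of 1.05. Without scaling 2 of 5 were higher and the median was 0.40. The 2 members on chromosome 6 had the widest differences. Mir141 was at 10613, 46330, 160747 and 386959 scaled FPKM on days 5 to 8, a difference of 3.49 ± 0.73 (SE of the limma fit with a mean FPKM of 1000 or more). Mir200c was at 690, 2009, 8940 and 14761, a difference of 3.27. Both climbed at every step, and with a mean FPKM of 1000 or more both rose, with limma adjusted p of 0.0414 and 0.0326. The 3 members on chromosome 4 moved less. Mir200a was at 20314, 29439, 46997 and 54323, a difference of 1.05. Mir429 was at 24286, 48223, 63705 and 59526, a difference of 0.85. Mir200b, the lowest difference at 0.61, overlapped because day 8 (103997) lay below day 6 (110554). Day 8 was below both lines in 4 of 5 members, and Mir141 was at 674629 in the iPSC and 1559990 in the ESC library. Of 2 further epithelial miRNAs, Mir203 was higher on both later days (0.82) on few reads, 23 on day 5 and 60 on day 8, and Mir205 was lower (-0.43), which turned to 0.05 with factors from miRNA genes alone.

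In the miR-183 cluster (GRCm38 chr6:30165918-30169737), known from sensory epithelia and expressed in pluripotent cells, Mir183 was at 23117200, 30106300, 17811500 and 14829100 scaled FPKM, a difference of -0.70. Mir96 overlapped, with 0.14. Mir182 was at 36060700 on day 5 and listed at 0 on days 6, 7 and 8 and in both lines. A value of 0 beside such a level can be a failed estimate, so no fold is given, and the list's median without it was -0.28.

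A group of 20 miRNAs between GRCm38 chrX:66776757 and chrX:67988451, known mostly from testis, had a median of 2.44, with 18 higher on both later days, 1 lower and 1 overlapping. The median was 1.46 without day 5 and 3.32 without day 6. All 18 differed by at least 2-fold, where 18.0% of all transcripts did so upwards. Mir470, the most abundant, was at 17274, 52537, 194910 and 198880 scaled FPKM on days 5 to 8, a difference of 2.71. Mir871 was at 12923, 46031, 151015 and 155224, a difference of 2.65. Mir881 was at 761, 3327, 12221 and 15404, a difference of 3.10. In each of the 3, days 7 and 8 were close together and both were several times day 5. Mir880 had the highest difference, 3.17, at 95.1, 700.4, 2482 and 2421, or 2 reads on day 5 and 69 on day 8. Mir742, next to the median, rests on 0 and 4 reads on those days. The 5 Mir465 genes, near-identical copies that the counting may have split, ranged from 2.33 to 2.74 and are not independent. The median step of the list was 1.85 from day 5 to day 6 and 1.46 from day 6 to day 7, and then 0.02 from day 7 to day 8.

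Of the X-linked list, 12 rose among transcripts with a mean FPKM of 1000 or more, with limma adjusted p from 0.0414 (Mir470, Mir471, Mir881) to 0.0493 (Mir463). Mir547, the lower member, was at 571, 175, 0 and 105 scaled FPKM, or 12 reads on day 5 and 3 on day 8, and Mir201 overlapped. Without scaling 13 were higher on both later days and 2 lower, with a median of 1.83. The 2 lines differed for these miRNAs. Mir470 was at 3218490 in the iPSC library and at 180588 in the ESC library, so days 7 and 8 lay near the ESC level. Over the list the median of iPSC was 3.99 above day 8 on the log2 scale and that of ESC 0.24 below it, and in 0 of 20 was ESC above iPSC.

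The Dlk1-Dio3 miRNAs were mostly lower. They are cut from long transcripts of an imprinted region whose maternal copy is active in fully pluripotent lines (GRCm38 chr12:109563692-109747960). Of its 45 tested members 37 were lower on both later days (23.5% of all transcripts and 35.1% of miRNAs were). Of the others 0 were higher and 8 overlapped, and the median was -0.92. In 22 the difference was at least 2-fold, where 13.9% of all transcripts were lower by that much. Mir127, the most abundant, was at 12683800, 7378240, 5876610 and 4660260 scaled FPKM on days 5 to 8, a difference of -0.89. Mir541 was at 7291020, 5952900, 3039960 and 1054150, a difference of -1.88. Mir1193 was at 10580, 9903, 2814 and 1836, a difference of -2.17. In these 3 each day was below the day before, as in 29 of the 45 members. Mir382, the median member, was at 95680, 60997, 45774 and 35373. Mir1188 had the widest difference, -2.65, at 220.4, 229.1, 26.0 and 28.7, the last on about 3 reads. Mir493, the highest difference at 0.08, overlapped, at 90556, 56510, 79795 and 71733.

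Mir341, Mir758, Mir770 and Mir1193 were the members of this list that fell in the limma fit over transcripts of a mean FPKM of 1000 or more, with adjusted p of 0.048, 0.0446, 0.0373 and 0.0373. Under the other 6 scalings between 31 and 45 of 45 were lower on both later days and between 0 and 4 higher, with medians from -1.57 (no scaling) to -0.44 (miRNA genes alone). Day 8 was below both established lines in 24 of 45. Both lines were below days 3 and 4 in 36 of 45, a comparison that 5 members listed at 0 on day 4 do not enter in that direction. Within the same stretch of chromosome 12, 54 transcripts of miRNA type had a median of -0.95, with 44 lower and 0 higher on both later days. The 20 snoRNAs there had a median of 0.35, with 9 higher and 2 lower. Gm24895, a snoRNA of that stretch, was at 2315, 2334, 9792 and 20609 scaled FPKM and rose by 2.61 (limma adjusted p = 0.0326 with a mean FPKM of 1000 or more). The share of those snoRNAs that were higher was near that of all snoRNAs, 48.7%. Without scaling 4 of the 20 were higher and 6 lower, with a median of 0.06, while the median of the 54 was -1.60.

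Neural miRNAs had a median of -1.76, with 5 of 8 lower (23.5% of all transcripts and 35.1% of miRNAs were) and 2 higher on both later days. The size of the median depended on the days used, at -0.92 without day 8 and -2.34 without day 7. The list's median step was -1.09 from day 6 to day 7 and -0.82 from day 7 to day 8. The 5 lower members hold 2 mature sequences, since miR-124 comes from 3 near-identical genes and miR-9 from the 2 tested here, and the counting may have split their reads. Mir124a-1 was at 8556, 6224, 2302 and 992 scaled FPKM, or 231 reads on day 5 and 36 on day 8, a difference of -2.26 ± 0.50 (SE of the limma fit with a mean FPKM of 1000 or more). Mir124a-2 and Mir124a-3 differed by -2.12 and -1.85, and all 3 fell with a mean FPKM of 1000 or more (limma adjusted p 0.0419, 0.0419 and 0.0422). Mir3078, in an exon of the same host transcript as Mir124a-1, was at 8229, 5198, 1391 and 405, and fell by 3.10 (adjusted p = 0.0373 in that limma fit), the widest of the abundant transcripts that were lower. Both lines held more of it than day 8, 5454 in iPSC and 3596 in ESC. Mir9-2, at 274991, 353183, 164279 and 51397, differed by -1.76 and was at 7362 and 6613 in the lines, and Mir9-3 differed by -1.75. The miR-128 genes hardly differed, with 0.08 for Mir128-1, the other higher member, and 0 for Mir128-2, which overlapped. Mir137, at 452, 374, 1144 and 696, was higher, by 1.10, on 8 to 17 reads on days 5 and 8.

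Mir10a, cut from the Hoxb cluster, was at 1564310, 1594790, 697816 and 193104 scaled FPKM, a difference of -2.11 ± 0.79 (SE of the limma fit over all transcripts, adjusted p = 0.297). On day 8 it reached the range of the lines, 205037 in iPSC and 91439 in ESC. Its relative Mir10b, from the Hoxd cluster, was at 6157620, 3950550, 3854190 and 2030960, a difference of -0.82. Of the 6 Hox miRNAs 3 were lower and 3, all of them miR-196, overlapped, among them Mir196a-2 with the highest difference of the list, -0.04, and Mir196a-1 with -0.31. Mir146, known from inflammatory signalling in blood cells, was at 3117840, 4177040, 1526620 and 537875, a difference of -1.99, and at 51712 and 67713 in the lines. In both Mir10a and Mir146 the step from day 7 to day 8 was at least as wide as that from day 6 to day 7. The list of blood cell miRNAs as a whole was split, with 3 of 9 higher and 3 lower, where 26.6% and 23.5% of all transcripts were. Its median of 0 is that of Mir511, which was listed at 0 on all 4 days. Mir142, at 5530, 12350, 21259 and 53757, was higher by 2.03, and both lines were above day 8. Mir126, known from endothelium, was at 25346, 34221, 40548 and 65056, a difference of 0.80.

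The list of fibroblast-type miRNAs did not separate the pairs with the scaling used here. Mir10b, a further marker of fibroblasts that is outside this list, was lower on both later days (-0.82). Of the miR-29 family, also taken as of fibroblasts and mesenchyme, 2 of 4 were higher, where 13.5% of all miRNA transcripts were. Its median was 0.25, and -0.39 without scaling. All 7 members of the list of miR-21, miR-199, miR-214, miR-143 and miR-145 overlapped, with differences from -0.13 to 0.08. Mir21 was at 4977070, 3416160, 4538260 and 3110570 scaled FPKM, and Mir143, the most abundant, at 13708600, 9584360, 13288100 and 8563810. In all 7 day 6 was below day 5, day 7 above day 6 and day 8 below day 7, so days 5 and 7 formed the higher pair. Mir214 had the highest difference, 0.08, and Mir199a-1 the median one, -0.05. The overlap depended on the scaling, since without it all 7 were lower on both later days (median -0.70), and with factors from miRNA genes alone 5 of 7 were higher and 0 lower (median 0.43). Leaving out 1 day moved the median from -0.36 (without day 6) to 0.27 (without day 5). Mir221 and Mir222 overlapped too, with differences of 0.13 and 0.18, and had the same order of days. In all 7 the ESC library was above the iPSC library, at 5057600 against 1274830 for Mir21. These miRNAs are also abundant in human fibroblasts, which were present as feeders on all 4 days and in both lines, and the share of human RNA was not measured here.

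Let-7 miRNAs, which are low in pluripotent cells, did not go one way, with 4 of 11 lower, 1 higher and 6 overlapping and a median of -0.38, that of mmu-let-7j. Of all miRNA transcripts 35.1% were lower on both later days, a share near that of the let-7 list. Without day 8 the median was -0.05. Mirlet7i, the most abundant, was at 2228260, 1423870, 1478020 and 1011460 scaled FPKM, with overlap. Mir98 had the lowest difference, -0.60, and Mirlet7b the highest, 0.42, which turned to -0.23 without scaling. Day 8 was above both lines in 10 of the 11. The miR-99, miR-100 and miR-125 list had 5 of 6 lower, led by Mir99b at 3462820, 3557810, 1770330 and 1423220, a difference of -1.14, while Mir99a overlapped with -0.11. The miR-30 family had 5 of 6 lower, with Mir30a at 4613510, 3731100, 3295300 and 2230990, a difference of -0.61, while Mir30b overlapped with -0.14. Their medians, -0.41 and -0.38, were near the median of all miRNA transcripts, -0.32, and like that of let-7 turned above 0 with factors from miRNA genes alone.

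Several families split between genes that share a seed. In the miR-181 family Mir181c was at 112397, 144674, 347551 and 762757 scaled FPKM and rose by 2.01 (limma adjusted p = 0.0446 with a mean FPKM of 1000 or more). Mir181d, its neighbour on chromosome 8, was at 134088, 133895, 262284 and 556149, a difference of 1.51. Both were still several times below the lines, at 2847230 and 2950010 for Mir181c. Mir181b-1, on chromosome 1, was at 216694, 116457, 81292 and 53548, a difference of -1.27, and both miR-181a genes overlapped, with -0.21 for Mir181a-1 and -0.22 for Mir181a-2. In the list of miR-15, miR-16, miR-195 and miR-497, Mir195 was at 1597, 3651, 6083 and 8780 and higher by 1.59, with its neighbour Mir497 higher by 1.15, while both miR-16 genes and both miR-15 genes overlapped, with the lowest difference, -0.37, in Mir15b, and -0.13 in Mir15a and -0.20 in Mir16-1. Mir26a-1 and Mir26a-2, which share a mature sequence, were higher by 0.82 and 0.86, Mir26a-2 at 3256340, 2890830, 5347490 and 5766450, and Mir26b overlapped. Mir130b was lower by 0.93 on the log2 scale, at 1128910, 1635660, 926164 and 548015, and Mir130a and Mir301 higher by 0.63 and 0.52.

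Other lists gave smaller or less certain differences. Beside their counts, 13.5% of all miRNA transcripts were higher and 35.1% lower on both later days. Over all transcripts these shares were 26.6% and 23.5%. In the miR-322 cluster 5 of 7 were higher, with a median of 0.24 that turned to -0.41 without scaling, with Mir503 at the top with 0.74, while Mir351 overlapped with -0.40. In the miR-29 family 2 of 4 were higher, by 0.42 and 0.49, while Mir29a and Mir29b-1 overlapped, with 0.09 and -0.02. In the miR-23, miR-27 and miR-24 clusters 2 of 5 were lower, among them Mir27b at 6559050, 7932580, 5476180 and 4092680 scaled FPKM, a difference of -0.61, while Mir27a and Mir24-2 overlapped, with -0.26 and -0.08. In the miR-34 and miR-449 list 3 of 5 were lower, Mir449a by the most, -1.02 on 8 and 5 reads on days 5 and 8, while Mir34a overlapped. Of miR-148 and miR-152, Mir152 was higher by 0.50, Mir148b lower with -0.63, and Mir148a overlapped. Muscle miRNAs were at 0 to 493 scaled FPKM on these days, and 4 of 6 were lower. Mir1a-1, the most abundant, rests on 10 and 6 reads on days 5 and 8, Mir1b had the lowest difference of the list, -1.69 on 18 and 13 reads, Mir133a-2 differed by -1.13 on 7 and 6 reads, and Mir133b was listed at 0 on all 4 days. The 2 miRNAs of the H19 and Igf2 locus were both lower, with Mir483 at 1491, 718, 634 and 339, or 26 reads on day 5 and 8 on day 8, and Mir675 on at most 3 reads on those days. Of 72 transcripts of the miR-466, miR-467, miR-669 and miR-297 type, many of them repeats in an intron of Sfmbt2 that the counting may split, 31 were lower and 2 higher, with a median of -0.37. Its most abundant member, Mir467e, was one of those 2, at 86929, 126142, 163515 and 158665, a difference of 0.62 that turned to -0.03 without scaling. The other was Mir669h, at 239, 746, 1120 and 848, a difference of 1.18, and Mir466h had the lowest difference, -1.56, at 6612, 7918, 4155 and 1448. Mir669d overlapped, with -0.36, near the median, which was -0.08 without day 8 and -0.70 without day 7. The 208 tested transcripts of the miR-6000 to miR-8000 series, which were annotated late and are mostly of few reads, had 14 higher and 44 lower and a median of -0.01, where many members lie near the floor and mmu-mir-7688, for one, was listed at 0 on all 4 days. The share of its members that were lower was below the 35.1% of all miRNA transcripts. Of its 17 members with a mean FPKM of 1000 or more 11 were lower and 1 higher, with a median of -1.08. Among all miRNA transcripts with a mean scaled FPKM of 1000 or more over days 5 to 8, 48% were lower. Its most abundant member, mmu-mir-6539, was at 209618, 108117, 39672 and 25638 and fell by 2.24 (adjusted p = 0.0414 in limma with a mean FPKM of 1000 or more). The list's widest differences, of mmu-mir-7033 and mmu-mir-6922, are those of transcripts listed at 0 on both days of 1 pair, with at most 8 reads in the other on days 5 and 8, so no fold is given.

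The kinds of RNA differed as well. Of 883 transcripts of miRNA type 310 were lower and 119 higher on both later days, with a median of -0.32. Of 413 snoRNAs 201 were higher and 17 lower, with a median of 0.74. Of 86 copies of 5S and 5.8S ribosomal RNA 43 were higher and 3 lower, with a median of 0.97, although near-identical copies share reads. This contrast depends on the denominator. snoRNAs took 2.96% and 2.61% of the modelled mapped reads on days 5 and 6 and 1.60% and 2.56% on days 7 and 8. miRNAs took 44.3% and 42.4% and then 21.1% and 25.1%. So among all mapped reads snoRNAs held no larger share on the later days, and without scaling 76 snoRNAs were higher and 67 lower, with a median of 0.15. With factors from miRNA genes alone, 252 were higher and 10 lower, and the miRNA type was split, with 230 higher and 201 lower. Such factors place the middle miRNA at no change (median 0), so the near-even split of miRNAs was set by the scaling.

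**Figure D3:**
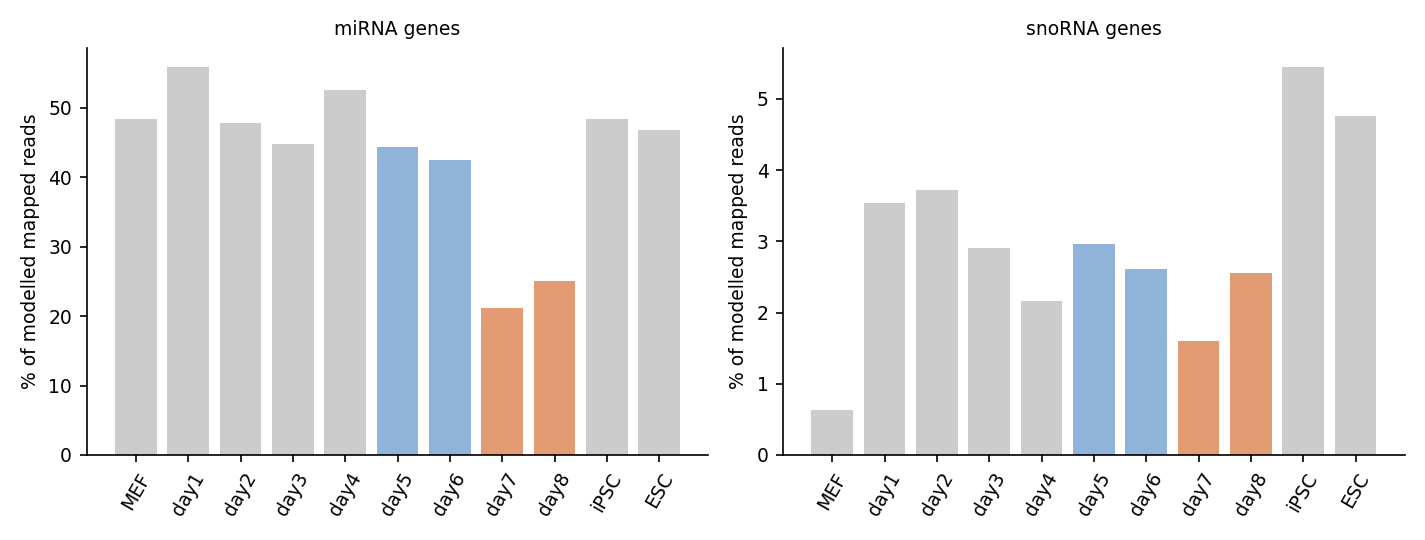
Share of modelled mapped reads, in %, taken by transcripts of miRNA type (left) and by snoRNAs (right) in each of the 11 libraries, 1 bar for each library, with days 5 and 6 in blue and days 7 and 8 in orange. The miRNA share is 21.1% and 25.1% on days 7 and 8, the lowest bars of the panel, and the snoRNA share is 1.60% on day 7, with only MEF lower.

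C/D box snoRNAs, which guide methylation of ribosomal RNA, were higher in 51 of 76 and lower in 1, with a median of 0.83, where 48.7% of all snoRNAs and 26.6% of all transcripts were higher. Snord93, the most abundant, was at 1601780, 1640290, 2541510 and 3237430 scaled FPKM, a difference of 0.82. Snord73a, from an intron of the ribosomal protein gene Rps3a1, was at 37181, 143571, 527325 and 619278, and rose by 2.97 (limma adjusted p = 0.0414 with a mean FPKM of 1000 or more). Rnu73b, from an intron of the same gene, was at 4774, 9270, 33307 and 47587, and rose by 2.58 (adjusted p = 0.0326 in that limma fit). Both were far above the lines on day 8, with Snord73a at 22316 in iPSC and 21240 in ESC. Snord14d, within Hspa8, was at 20157, 63446, 161044 and 350653 and rose by 2.73 (adjusted p = 0.0425 in the same limma fit). In all, 9 C/D box snoRNAs of the list rose in that fit. Snord45b had the median difference, 0.83, at 103971, 70096, 158688 and 146101. Snord21 had the highest, 4.26, at 0.0886, 47.1, 214 and 934, or 0 reads on day 5 and 46 on day 8, so that it depends on the value added before the log. Snord12 had the lowest, -1.26, but overlapped, since day 5 (117461) was far above the other days (21559, 28550 and 15375). Snord69 was the one lower member, at 519428, 519562, 394738 and 330037, a difference of -0.53. Without scaling 19 of the 76 were higher and 11 lower, with a median of 0.19.

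H/ACA box snoRNAs, which guide the change of uridine to pseudouridine, were higher in 18 of 32 and lower in 0, with a median of 0.97, a count near the 48.7% of all snoRNAs. Of the 7 with a mean FPKM of 1000 or more 3 were higher (median 0.32), and without scaling 9 of 32 were higher and 3 lower (median 0.37). Snora16a, the most abundant, was at 1718, 3624, 4165 and 8959 scaled FPKM, a difference of 1.29. Snora20, the highest difference at 2.41, and Snora21, near the median at 1.01, rest on 0 to 19 and 15 to 58 reads on days 5 and 8, and SNORA43, the lowest, on at most 1. Of the Cajal body RNAs, which guide the modification of spliceosomal RNAs, 7 of 9 were higher, with a median of 0.78. This share was near the 75% of all transcripts annotated as small Cajal body RNAs. Without scaling 2 of 9 were higher. Scarna9, the median member, was at 6901, 10451, 14766 and 14375. Scarna17, the most abundant, was at 28283, 14451, 32820 and 42662. Scarna3a overlapped, with 0.15, the lowest of the list, and Scarna8, the highest, was listed at 0 on days 5 and 6 and rests on 6 reads on day 8. Of the snoRNAs of the Prader-Willi locus, an imprinted region, Snord64 was at 13614, 12601, 30557 and 43306, a difference of 1.47, and 3 of 4 were higher, where 48.7% of all snoRNAs were. Snord116l1 and Snord116l2 rest on at most 5 reads on days 5 and 8. Among ribosomal RNAs n-R5s193, a copy of 5S, was at 3190, 2040, 8237 and 17631 and rose by 2.24 (adjusted p = 0.0419 in limma with a mean FPKM of 1000 or more).

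**Figure D4:**
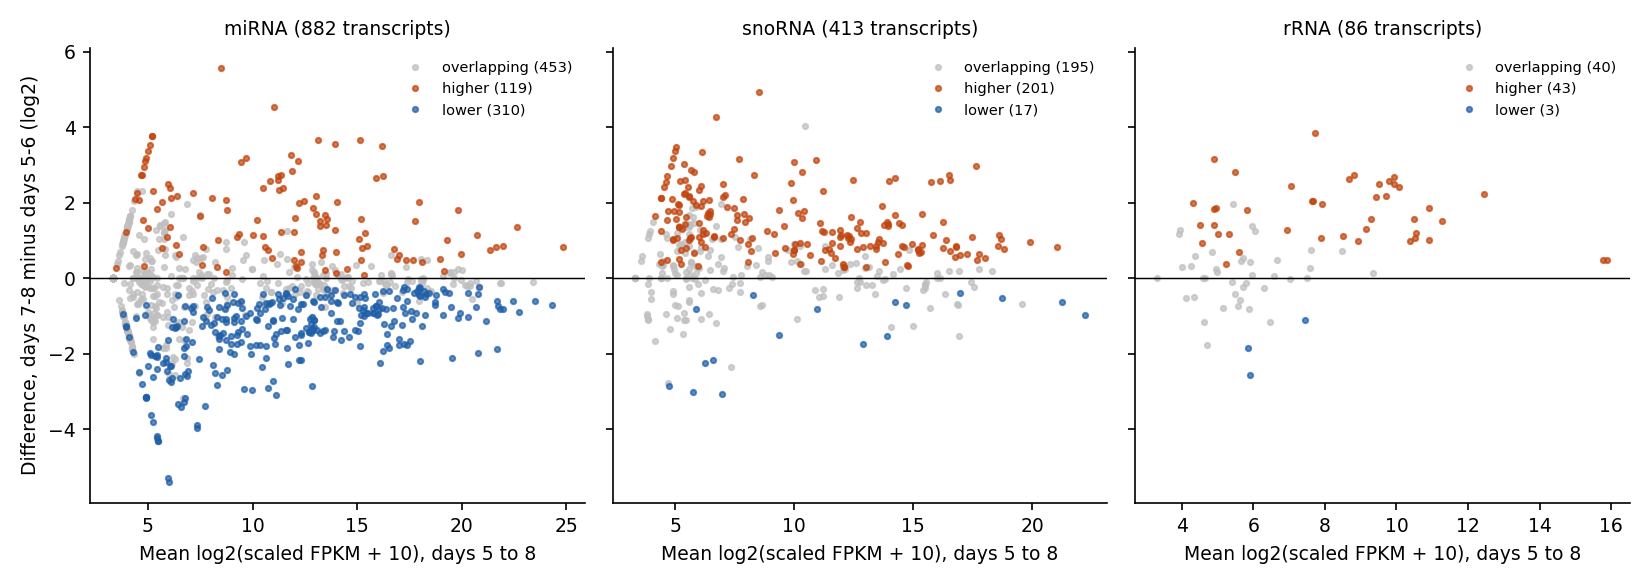
Difference between days 7 and 8 and days 5 and 6 in log2(scaled FPKM + 10) against the mean level of the 4 days, for transcripts of miRNA, snoRNA and rRNA type, coloured by whether both later values lay above (orange) or below (blue) both earlier ones. Blue points prevail among miRNAs (310 against 119) and orange points among snoRNAs (201 against 17), and the lines of points at the far left are transcripts of 1 or few reads; Mir182 is left out.

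By size alone, the 15 widest differences upward among non-overlapping transcripts with a mean of at least 1000 scaled FPKM over the 4 days were the 5 miR-302-367 members, Mir141, Mir200c, Mir880, Mir881, Snord73a, Snord67, Gm22486, Gm22589, Gm26083 and Gm25911. Gm26083, a small Cajal body RNA in an exon of Snhg20, was at 207, 221, 2292 and 5989 scaled FPKM, a difference of 4.05, and at 224 and 248 in the lines. Gm22486, a snoRNA within Ptcd3, was at 322, 1292, 5003 and 6529 and rose by 3.12 (limma adjusted p = 0.0414 with a mean FPKM of 1000 or more). Snord67, within Ckap5, was at 299, 384, 1796 and 4834, a difference of 3.08. Gm22589 and Gm25911 rest on 9 and 1 reads on day 5. These snoRNA-type transcripts climbed to day 8, as the miR-302-367 cluster did.

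The 15 widest differences downward were Mir3078, mmu-mir-7689, Mir504, CR974451.1, Mir879, Mir3086, Mir770, Mir124a-1, mmu-mir-6539, Gm25301, Mir1193, Mir129-1, Mir124a-2, Mir10a and Mir5128. Mir879 was at 26671, 14894, 4061 and 1851 scaled FPKM and fell by 2.86 (limma adjusted p = 0.0326 with a mean FPKM of 1000 or more). Gm25301 was at 670895, 476166, 182410 and 83688 and fell by 2.19 (adjusted p = 0.0419 in that limma fit). Mir504, in an intron of Fgf13, was at 3025, 1452, 138 and 507 and fell by 2.93 (adjusted p = 0.0419 in the same limma fit). Mir3086, mmu-mir-7689, CR974451.1 and Mir129-1 fell by 2.74, 2.96, 2.90 and 2.15. Of the 15, Mir10a and Mir5128 were the 2 that limma did not call with that filter. Both lines were above day 8 for Mir879, at 30077 and 13674, and for Gm25301, at 155054 and 169556.

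Most differences were not spread evenly over the 3 daily steps. Of 201 transcripts that were higher on both later days with a mean of at least 1000 scaled FPKM, 126 had their widest step from day 6 to day 7, 47 from day 5 to day 6 and 28 from day 7 to day 8, and 89 climbed at every step. Of 204 that were lower, 93 had their widest step from day 6 to day 7, 85 from day 7 to day 8 and 26 from day 5 to day 6, and 120 declined at every step. The rule that the pairs do not overlap divides the course between days 6 and 7 and so favours that step.

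The iPSC and ESC libraries and days 3 and 4 did not enter the comparison of the 4 days other than through the scaling and the filter. In both lines 330 of the 1419 transcripts were above both days 3 and 4 (23.3%) and 409 below both (28.8%). Of the 378 transcripts that were higher on days 7 and 8, 187 (49.5%) were also higher in both lines than on days 3 and 4 and 41 (10.8%) lower. Of the 333 that were lower, 189 (56.8%) were lower in both lines and 16 (4.80%) higher. Of the 708 that overlapped, 127 (17.9%) were higher and 179 (25.3%) lower in the lines. The difference between these shares was not tested. Day 3 may also have come before the inhibitors, on whose first day the labels disagree. In the miR-17-92 cluster, lower on days 7 and 8 in all 6 members, both lines were below days 3 and 4 in 3 members.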

How the data were processed

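Small RNA was sequenced by the authors from total RNA with the TruSeq small RNA kit and gel size selection, per the labels' protocols, in 11 libraries, 1 for each stage. The deposited values are FPKM for 3859 small RNA genes. Per the submitters' processing notes, the build was mm10 and the tools included Cufflinks 2.2.1, Bowtie2 2 and CASAVA 1.8.2, without roles. How reads that match several loci were treated, and on which annotation, is not given in the sources used here. Coordinates and kinds of RNA are from GENCODE vM21, where 3717 of the IDs were found and 142 were not.

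FPKM was divided by median ratios over 783 transcripts above 0 in all 11 libraries and analysed as log2(value + 10) for 1419 transcripts whose mean FPKM was 10 or more. On this scale the changes of low transcripts are understated. Two-sided limma 3.58.1 (R 4.3.3) compared 2 libraries with 2 (residual df 2, prior df 0.842 and a prior SD of 0.271). With a mean FPKM of 1000 or more the prior df was 6.07 and the prior SD 0.444. The threshold was a Benjamini-Hochberg adjusted p of 0.05. The fit was also run on simulated data with an equal spread for every transcript and independent days. These data have neither property, so that run does not bear on the calls. Errors are limma standard errors. Depth was modelled from the steps of low FPKM values, with an assumed fragment length of 200 ± 80 nt. Between 89.7% and 96.4% of low values were then whole reads within 0.05 read, and no count test was run, since the worth of a read depends on that model.

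Transcripts were named by rule: in each direction the 15 widest differences among non-overlapping transcripts of a mean scaled FPKM of at least 1000, the widest, narrowest, median and most abundant members of each list, and the 5 most abundant transcripts. A transcript listed at 0 in 1 of the 4 libraries and above 100000 FPKM in another was kept apart. Further members of the lists were named after their values were seen. The comparison, its members and all lists were chosen with earlier results of these data known, so a list's direction is a description. Alternatives were 6 other scalings, 2 pseudocounts, 3 filters, 3 other models, leaving out each day, and day 7 against day 6 alone. The column sums and the filter on modelled reads were chosen after seeing the data.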

Additional observations from a re-analysis of the deposited data

How the results depend on the processing

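Without scaling, 158 transcripts were higher and 560 lower on both later days, 22.0% higher among those separated, against 53.2% in the reported comparison. With factors from miRNA genes alone the numbers were 548 and 216 (71.7% higher), with column sums 437 and 281 (60.9%), and with a mean FPKM of 1000 or more 187 and 223. Day 7 against day 6 alone gave 631 and 674. Leaving out 1 day gave 500 to 562 higher and 424 to 508 lower. With fewer libraries the rule of no overlap is easier to meet, so none of the 378 and 333 calls could be lost there. Limma called 12 transcripts upward and 9 downward with a pseudocount of 1, 1 upward without a filter, 32 upward and 26 downward with a mean FPKM of 1000 or more, 43 upward and 23 downward with a mean of 10 modelled reads, and 1 upward when 5 pairs of libraries shared the spread. All other limma settings gave 0. The cause of these changes was not tested, except that the filters leave fewer transcripts to test.

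Without scaling the median difference turned to -0.38 for the miR-130 and miR-301 list, -0.45 for miR-203 and miR-205, -0.39 for miR-29, -0.49 for miR-221 and miR-222 and -0.41 for the miR-322 cluster. It turned to -0.43 for Mir291b, -0.13 for Mir301, -0.019 for Mir130a, -0.23 for Mirlet7b and Mir29c, -0.16 for Mir29b-2, -0.41 for Mir322, -0.15 for Mir152 and -0.026 for Mir467e. With factors from miRNA genes alone the median turned to 0.10 for let-7, 0.073 for miR-99, miR-100 and miR-125, 0.05 for Hox, 0.33 for miR-15 and miR-16, 0.19 for miR-34, 0.23 for miR-23, miR-27 and miR-24, 0.11 for miR-30, 0.26 for miR-181, 0.35 for miR-148, 0.12 for miR-466, 0.43 for the miR-21 list and 0.40 for miR-106b-25. The difference turned to 0.17 for Mir19b-1, 0.20 for Mir19b-2, 0.25 for Mir106b, 0.05 for Mir205, 0.10 for Mir125a, 0.19 for Mir34b and 0.13 for Mir30c-2. Quantile normalization gave 0.026, 0.062 and 0.28 for miR-15, miR-181 and miR-148, and column sums 0.082, 0.019 and 0.11, with 0.009 for Mir106b. For the miR-21 and miR-106b-25 lists, whose medians were -0.05 and -0.08, quantile normalization gave 0.09 and 0.22, column sums 0.19 and 0.16, and factors from abundant transcripts 0.039 and 0.007. Leaving out each day in turn changed the sign of 7 list medians, which ranged from -0.059 to 0.588 for miR-130 (below 0 without day 5 and without day 7), from -0.086 to 0.395 for miR-221 (below 0 without day 6), from -0.376 to 0.079 for miR-15 (above 0 without day 6), from -0.56 to 0.123 for miR-181 (above 0 without day 5 and without day 8), from -0.319 to 0.055 for miR-148 (above 0 without day 8), from -0.362 to 0.274 for the miR-21 list (above 0 without day 5 and without day 8) and from -0.164 to 0.003 for miR-106b-25 (above 0 without day 5). The median of 0 of the blood cell list became 0.12 without day 7. Day 7 against day 6 alone gave 0.18 for let-7, 0.37 for miR-181, 0.14 for miR-148 and 0.49 for the miR-21 list. No paired analysis was possible because each day has 1 library and the labels carry no replicate numbers.

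Depth limits transcripts of a few reads, such as muscle miRNAs, Mir367 on day 5 and most H/ACA box snoRNAs. The spread between cultures was not measured, since each day has 1 library.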
